A study of Homo sapiens with 24 samples.

Results

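A set of 9 genes that mark the start of neuronal differentiation was followed across human embryonic stem cells (hESCs) and the neuroectoderm made from them. They are the proneural basic helix-loop-helix (bHLH) factors NEUROG1, NEUROG2 and NEUROD1, the zinc-finger factor INSM1, and the early neuronal genes DCX, TUBB3, ELAVL3, ELAVL4 and STMN2. The members were chosen by gene symbol, and all 9 were found once each among the 61551 genes of the count table. All cells were H9, an established hESC line. Unedited cells carried the human HAR123 element, a noncoding enhancer inside an intron of SMG6, and are called hHAR123. HAR123-KO cells lacked HAR123 on both alleles after CRISPR editing, and in cHAR123 and mHAR123 cells the chimpanzee or the mouse ortholog stood in place of the human element. Each of the 4 genotypes was sequenced as hESCs (day 0) and as neuroectoderm after 5 days with 500 ng/ml Noggin and 10 µM SB431542, inhibitors of BMP and of TGF-beta and activin signalling, with 3 libraries in each of the 8 groups and 24 libraries in all. Each of the 4 genotypes, hHAR123 included, was sequenced from 2 clones, so at least 2 of the 3 libraries of a group share a clone, and which clone gave which library was not stated in the sources used here.

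Proneural factors bind E-box sequences as dimers with E proteins and switch on genes of neuronal commitment, while ID and HES proteins oppose them. NEUROG1 and NEUROG2 act early in dividing progenitors. NEUROG1 is also known from cranial placodes and sensory ganglia, and NEUROG2 from cortex and spinal cord. NEUROD1 and INSM1 follow in committed cells. DCX and STMN2 act on microtubules, TUBB3 is a neuronal beta-tubulin, and ELAVL3 and ELAVL4 (HuC and HuD) are neuronal RNA-binding proteins.

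The 250 bases before the annotated starts of NEUROG1 and NEUROG2 are shown because these paralogs moved in opposite directions without HAR123. They are RefSeq sequences of GRCh38.p14, 5′ to 3′ on the minus strand, from chr5:135535965-135536214 and chr4:112516181-112516430. Capitals mark a CCAAT motif read on the other strand in NEUROG1 and the motif TATATAA in NEUROG2.
NEUROG1: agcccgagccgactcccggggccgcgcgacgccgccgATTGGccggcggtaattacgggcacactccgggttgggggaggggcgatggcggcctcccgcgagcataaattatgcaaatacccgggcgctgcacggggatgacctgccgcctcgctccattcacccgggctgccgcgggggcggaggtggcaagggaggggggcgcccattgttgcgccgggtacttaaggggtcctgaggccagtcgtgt
NEUROG2: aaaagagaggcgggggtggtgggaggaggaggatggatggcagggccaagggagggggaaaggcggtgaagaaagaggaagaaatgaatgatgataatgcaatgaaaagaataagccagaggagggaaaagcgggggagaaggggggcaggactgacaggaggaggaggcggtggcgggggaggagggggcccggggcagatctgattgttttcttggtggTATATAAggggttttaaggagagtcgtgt
Searched on both strands, CCAAT was present in 32% and TATATAA in 2.42% of 35116 such windows over all genes. The E-box pattern CANNTG, present in 61.8% of the windows, was found in neither the NEUROG1 nor the NEUROG2 window. TATATAA also lay in the NEUROD1 window, beginning at position -31 from the start, against -29 in NEUROG2. Whether these motifs bear on the levels was not tested.

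In GRCh38 the proneural genes lie at chr5:135534282-135535964 (NEUROG1, minus strand), chr4:112513516-112516180 (NEUROG2, minus strand) and chr2:181668295-181680827 (NEUROD1, minus strand). INSM1 lies at chr20:20368104-20370949 on the plus strand. The other genes lie at chrX:111293779-111412429 (DCX, minus strand), chr16:89921392-89938761 (TUBB3, plus strand), chr19:11451326-11481046 (ELAVL3, minus strand), chr1:50024029-50203772 (ELAVL4, plus strand) and chr8:79611117-79666158 (STMN2, plus strand). Reads were counted over the exons of each gene. TUBB3 is the least certain of the 9, since 21.5% of its 50-base stretches also occur in other genes. The overlapping gene model ENSG00000198211, on the same strand, covers 21.3% of the TUBB3 exon length and had no counts in any library, and some stretches also occur in TUBB2A, TUBB2B, TUBB4A or TUBB4B. The shared part was 4.31% for ELAVL3, 2.28% for NEUROD1, 0.21% for DCX and 0 for the other 5. In NEUROG2, 4.01% of the exon length overlaps the antisense gene NEUROG2-AS1, and the strand setting of the counting was not stated.

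Total counts ranged from 23334732 to 35198684 in the hESC libraries and from 21022748 to 25978892 in the neuroectoderm libraries. The 7 pluripotency markers summed to between 4228 and 4513 CPM in hESCs and between 1484 and 1756 CPM in neuroectoderm. CPM are counts scaled to a library total of 1000000. Single markers fell unequally between the stages. In hHAR123 the log2 fold changes were largest for TDGF1 (-9.24), NANOG (-7.24) and POU5F1 (-6.50). In the libraries labelled mHAR123, LIN28A changed least (-0.53) and was not called. All 8 neuroectoderm and progenitor markers were called higher in hHAR123 neuroectoderm than in hHAR123 hESCs. Exon counts cannot check the deletion of a noncoding element. The neuroectoderm libraries labelled cHAR123 and mHAR123 went against another record of the study. All 117 genes that the study lists for cHAR123 neuroectoderm carry base means that the columns labelled mHAR123 give within 0.1%, against 2 genes for the columns labelled cHAR123, and all 114 genes listed for mHAR123 match the columns labelled cHAR123, against 2 for mHAR123. The lists for HAR123-KO and for hESCs matched the columns of their own labels. Neuroectoderm values of both are given here for the libraries as labelled. If those neuroectoderm labels were exchanged, a comparison of stages within cHAR123 or mHAR123 would set neuroectoderm of either genotype against hESCs of the other.

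The question put first was how the genes came on as hESCs became neuroectoderm. A gene was called when its adjusted p was under 0.01 and its log2 fold change was beyond 1 in either direction (edgeR's quasi-likelihood test). Between hHAR123 hESCs and hHAR123 neuroectoderm, 8 of the 9 genes were called higher, where 24.6% of the 22280 genes tested were called higher and 45.9% were called in either direction. The same 8 were called higher in HAR123-KO, cHAR123 and mHAR123 cells, beside 22%, 21.9% and 21.3% of all genes tested. The cHAR123 and mHAR123 comparisons take the neuroectoderm labels as given. The gene outside the call in each genotype was TUBB3. In bulk RNA, more cells of a type and more RNA per cell cannot be told apart.

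The 3 proneural factors and ELAVL4 were close to undetected in hESCs. NEUROG1 and NEUROG2 had no counts in any of the 3 hHAR123 hESC libraries, and NEUROD1 and ELAVL4 had 1 count each over those libraries. Across all 12 hESC libraries these 4 genes never exceeded 3 counts in a library. They passed the filter on low counts through their neuroectoderm libraries alone, so that their calls had to be higher ones. Against a floor of 3 counts over the group, NEUROG1 was at least 54.9-fold higher and NEUROG2 at least 87.5-fold higher in hHAR123 neuroectoderm. For ELAVL4 the depth-scaled ratio of summed counts was 567 (95% exact interval 101 to 22460, counting error only), and for NEUROD1 it was 176 (31.1 to 7026).

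Among the genes with counts in hESCs, the order of the stage effects in hHAR123 was STMN2, INSM1, ELAVL3, DCX and TUBB3. STMN2 rose from 0.446 ± 0.193 CPM to 21.2 ± 1.49 CPM (SD, n = 3), a log2 fold change of 5.26 (SE 0.15, adjusted p = 4.5e-29). INSM1 rose by 3.71 on the log2 scale (SE 0.19, adjusted p = 1.41e-20). ELAVL3 rose by 3.50 (SE 0.13, adjusted p = 6.16e-25), close to INSM1 within their errors. DCX was already at 13.0 ± 1.08 CPM in hESCs and rose to 38.5 ± 0.758 CPM (log2 fold change 1.27, SE 0.06, adjusted p = 4.55e-21).

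TUBB3, often used as a neuronal marker, was counted in hESCs at 4.58, 5.48 and 5.11 CPM and in hHAR123 neuroectoderm at 8.94, 10.7 and 10.2 CPM. The groups did not overlap, and the log2 fold change of 0.69 (SE 0.10, adjusted p = 1.12e-07) stayed under the fold threshold. In HAR123-KO cells TUBB3 had 6.26, 5.88 and 6.12 CPM in hESCs and 8.36, 6.32 and 6.58 CPM in neuroectoderm. These groups did not overlap on the scale of library totals, while the TMM-scaled fit gave a log2 fold change of 0.02 (95% interval -0.20 to 0.23, adjusted p = 0.878). The sign of that value changed when libraries were scaled by DESeq2 size factors (-0.01).

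Scaled to exon length, the genes of hHAR123 neuroectoderm ran from STMN2 (10.4 ± 0.732 RPKM, n = 3) through DCX (3.77 ± 0.0743), ELAVL3 (3.11 ± 0.221), INSM1 (2.498 ± 0.332), TUBB3 (1.34 ± 0.124), NEUROG2 (1.14 ± 0.105), NEUROG1 (0.983 ± 0.111) and ELAVL4 (0.678 ± 0.0864) to NEUROD1 (0.217 ± 0.0485). Of the neighbours in this order, TUBB3 and NEUROG2 overlapped between libraries. In HAR123-KO neuroectoderm NEUROG1 moved to the second place (6.77 ± 0.859 RPKM), overlapping STMN2 (7.32 ± 0.400 RPKM), and the last 3 places were held by NEUROG2, ELAVL4 and NEUROD1.

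**Figure D1:**
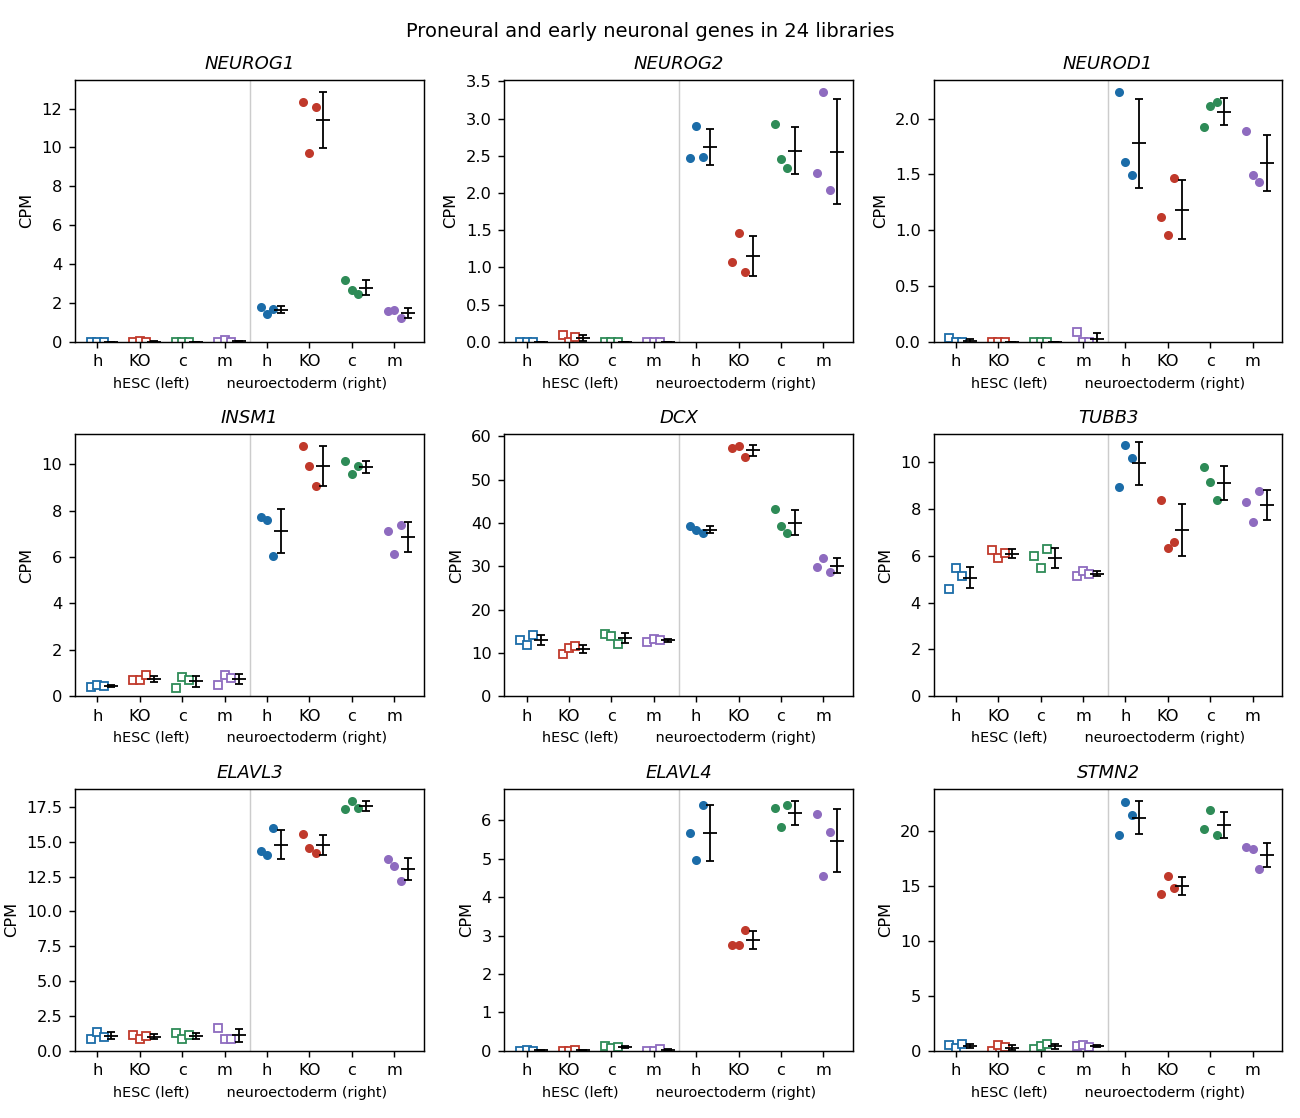
Level of each of the 9 genes in CPM (vertical axis, linear, from 0) in 24 libraries, with hESCs as open squares on the left and neuroectoderm as filled circles on the right, by genotype (h, hHAR123; KO, HAR123-KO; c, cHAR123; m, mHAR123). Black marks give the mean ± SD of 3 libraries; NEUROG1 stands out in HAR123-KO neuroectoderm at 11.4 ± 1.44 CPM, and TUBB3 alone has hESC levels near its neuroectoderm levels.

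In hESCs, losing or replacing HAR123 left no member called. In HAR123-KO against hHAR123 hESCs 1.18% of the genes tested were called, in cHAR123 0.85% and in mHAR123 1.23%. INSM1, DCX, TUBB3, ELAVL3 and STMN2 could be tested, and the other 4 genes fell below the filter. None of the 5 had an adjusted p under 0.01 in any genotype, where 12.4%, 16.3% and 19.2% of all genes tested did. INSM1 had 0.438 ± 0.0534 CPM in hHAR123 and 0.758 ± 0.130 CPM in HAR123-KO hESCs, without overlap (log2 fold change 0.78, adjusted p = 0.0722). At an unadjusted p under 0.05 there were 3 of the 5 genes in HAR123-KO, 0 in cHAR123 and 1 in mHAR123, and DESeq2 called 0 members in each genotype. The share of all genes at that unadjusted p is not given, and it cannot be below the share with an adjusted p under 0.01. The value closest to the threshold was that of DCX in HAR123-KO. DCX had 13.1, 11.9 and 14.1 CPM in hHAR123 hESCs and 9.86, 11.2 and 11.6 CPM in HAR123-KO hESCs. These groups did not overlap (log2 fold change -0.27, adjusted p = 0.0101), and the adjusted p passed 0.01 in 4 of the other fits, among them the fit with the replicate block (0.00433), as well as without hHAR123 hESC replicate 2 (0.00534) or HAR123-KO hESC replicate 3 (0.00502).

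In neuroectoderm, NEUROG1 and NEUROG2 moved apart when HAR123 was deleted. NEUROG1 rose and NEUROG2 fell, making 2 of the 9 genes called where 9.45% of the 21362 genes tested were called. Adjusted p-values under 0.01 at any size of change were found for 7 of the 9 genes, 3 higher and 4 lower, and for 44.1% of all genes tested. The median log2 fold change was -0.45 over the 9 genes and 0.00 over all genes.

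NEUROG1 had 38, 35 and 40 counts in the hHAR123 libraries and 287, 234 and 296 in the HAR123-KO libraries. All 3 HAR123-KO libraries were far above all others, at 11.4 ± 1.44 CPM against 1.65 ± 0.187 CPM (SD, n = 3). The fitted change was 7.15-fold, a log2 fold change of 2.84 (SE 0.14, adjusted p = 7.55e-24).

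NEUROG2 had 52, 70 and 58 counts in the hHAR123 libraries and 25, 35 and 23 in the HAR123-KO libraries. Every HAR123-KO library was below every hHAR123 library, at 1.16 ± 0.268 CPM against 2.61 ± 0.241 CPM (log2 fold change -1.12, SE 0.21, adjusted p = 9.99e-06). The call turned on 1 library. Without HAR123-KO replicate 3 the log2 fold change was -0.99 (adjusted p = 0.000429), just inside the fold threshold.

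NEUROD1, which acts after the neurogenins, was counted 47, 39 and 35 times in hHAR123 and 26, 23 and 36 times in HAR123-KO neuroectoderm. Its lowest HAR123-KO libraries lay below all hHAR123 libraries, and the highest HAR123-KO library (1.47 CPM) lay just below the lowest hHAR123 library (1.49 CPM). The log2 fold change of -0.52 (95% interval -0.99 to -0.06) had an adjusted p of 0.0574. At these counts a difference of that size did not pass the test.

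INSM1, a repressor of progenitor genes in committed precursors, had 7.71, 7.60 and 6.02 CPM in hHAR123 and 10.8, 9.90 and 9.07 CPM in HAR123-KO neuroectoderm. All 3 HAR123-KO libraries were higher, with a log2 difference of 0.53 (SE 0.10, adjusted p = 1.9e-05). DCX had 39.3, 38.3 and 37.8 CPM in hHAR123 and 57.3, 57.8 and 55.3 CPM in HAR123-KO neuroectoderm. The DCX groups were well separated, with a log2 difference of 0.61 (SE 0.05, adjusted p = 5.65e-16) that stayed under the fold threshold.

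ELAVL4, TUBB3 and STMN2 went the other way. ELAVL4 had 5.66, 4.96 and 6.41 CPM in hHAR123 and 2.76, 2.75 and 3.15 CPM in HAR123-KO neuroectoderm. Its groups were far apart, and the log2 difference of -0.92 (SE 0.14, adjusted p = 1.54e-07) lay just inside the fold threshold. Without hHAR123 replicate 2 it was -1.02, which is a call.

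STMN2 was lower by a log2 difference of -0.45 (SE 0.07, adjusted p = 5.78e-07), with means of 21.2 ± 1.49 CPM in hHAR123 and 14.95 ± 0.817 CPM in HAR123-KO. TUBB3 was lower by the same -0.45 (SE 0.11, adjusted p = 0.000333), although DESeq2 gave it an adjusted p of 0.0138. ELAVL3, the paralog of ELAVL4, had 14.8 ± 1.05 CPM in hHAR123 and 14.8 ± 0.713 CPM in HAR123-KO (log2 fold change 0.05, 95% interval -0.10 to 0.20, adjusted p = 0.63). The early neuronal genes thus did not share a direction.

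**Figure D2:**
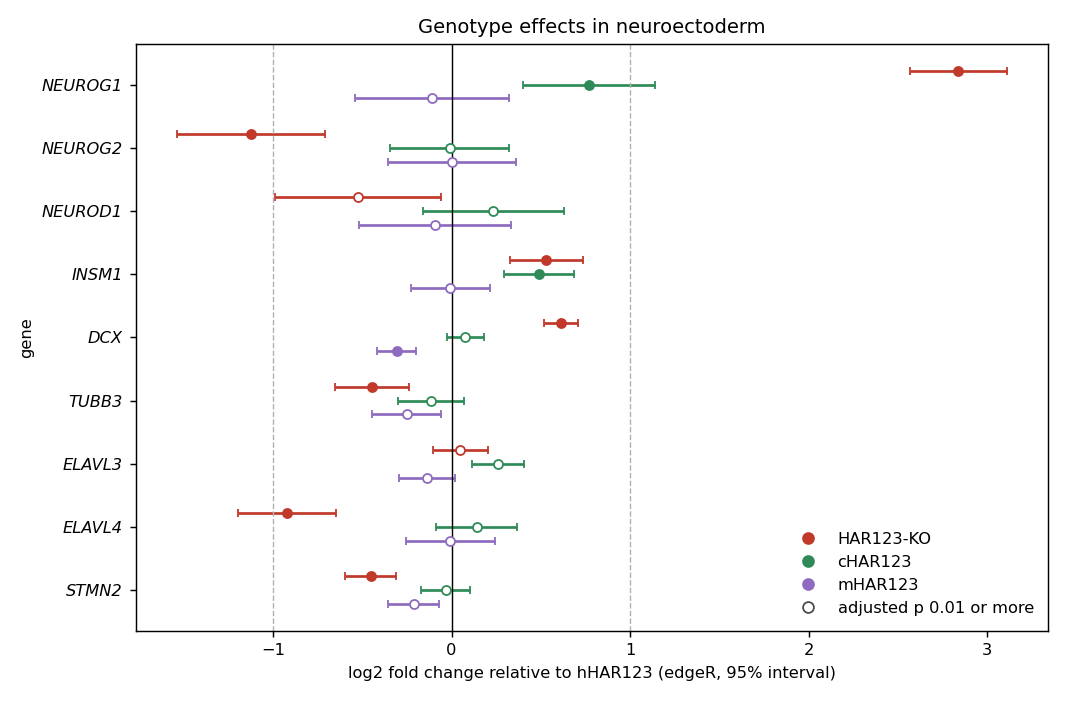
Log2 fold change of each of the 9 genes in neuroectoderm relative to hHAR123 (horizontal axis, edgeR estimate with 95% interval) for HAR123-KO, cHAR123 and mHAR123 as labelled, with 3 libraries per group. Filled points have an adjusted p under 0.01 and dashed lines mark the fold threshold of 1; NEUROG1 (2.84) and NEUROG2 (-1.12) are the points beyond it, both in HAR123-KO.

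Ratios within a library do not depend on how libraries are scaled, and they were taken here from length-scaled levels (RPKM). NEUROG1 over NEUROG2 was 0.873 ± 0.168 in hHAR123 neuroectoderm and 14.1 ± 4.42 in HAR123-KO neuroectoderm (SD, n = 3). It ranged from 9.12 to 17.6 in HAR123-KO and from 0.673 to 1.49 in the other 3 genotypes. ELAVL3 over ELAVL4 was 4.61 ± 0.333 in hHAR123 and 9.07 ± 1.02 in HAR123-KO. The 2 microtubule regulators also parted, with DCX over STMN2 at 0.365 ± 0.0321 in hHAR123 and 0.761 ± 0.0385 in HAR123-KO. DCX over TUBB3 was 2.83 ± 0.320 in hHAR123 and 5.92 ± 0.848 in HAR123-KO. NEUROD1 over NEUROG2 was 0.192 ± 0.0526 in hHAR123 and 0.304 ± 0.128 in HAR123-KO. Of these 5 ratios, 4 were higher in all HAR123-KO libraries than in every library of the other genotypes, while NEUROD1 over NEUROG2 overlapped, with HAR123-KO replicate 2 at 0.184. The pairs were picked from the members, and their ratios restate changes of single genes given above. In HAR123-KO against hHAR123 neuroectoderm 44.1% of all genes tested had an adjusted p under 0.01. The share of all gene pairs that part in this way is not given, and the ratios were not tested.

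**Figure D3:**
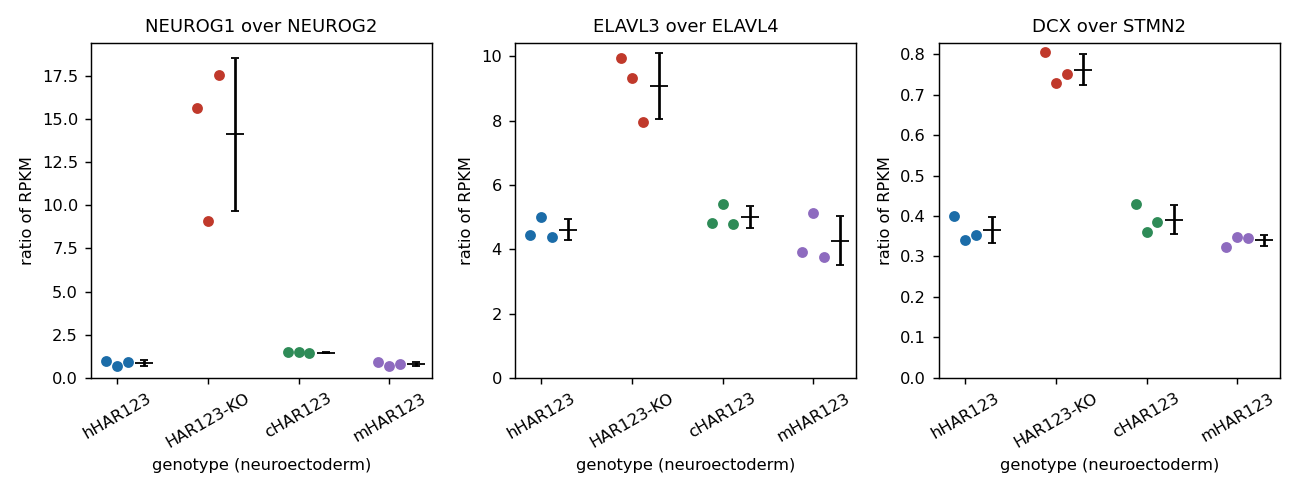
Ratio of length-scaled levels (RPKM) of NEUROG1 over NEUROG2, ELAVL3 over ELAVL4 and DCX over STMN2 in each neuroectoderm library, by genotype, with the mean ± SD of 3 libraries in black. HAR123-KO is higher than every other library in each panel, at 14.1 ± 4.42 for the neurogenins.

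Whether the HAR123-KO effect differed between the stages was asked with an interaction term for the 5 genes with counts in hESCs. DCX differed, with an effect 0.88 greater in neuroectoderm than in hESCs on the log2 scale (SE 0.09, adjusted p = 7.53e-12), and TUBB3 differed by -0.69 (SE 0.15, adjusted p = 0.000147). Both stayed under the fold threshold and were not called, where 7.87% of all genes tested were called in either direction. An adjusted p under 0.01 was found for 32.5% of all genes tested. INSM1, ELAVL3 and STMN2 gave adjusted p-values between 0.548 and 0.781. For cHAR123 and mHAR123, with neuroectoderm as labelled, none of the 5 genes had an adjusted p under 0.01, which 8.71% and 12.8% of all genes tested had. Under exchanged neuroectoderm labels these interaction terms would mix the genotypes, and their values would not stand.

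The neuroectoderm libraries labelled cHAR123 and mHAR123 stayed close to hHAR123, with which both were compared through the same 3 hHAR123 libraries. No member was called in either, where 0.978% and 1.03% of all genes tested were called. In the cHAR123 libraries 2 of 9 members had an adjusted p under 0.01, beside 9.89% of all genes tested, and in the mHAR123 libraries 1 of 9, beside 14%. At an unadjusted p under 0.05 there were 3 members in each, a count for which the share of all genes is not given. DESeq2 called 0 members in both.

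NEUROG1 had 80, 63 and 55 counts in the libraries labelled cHAR123. Their level of 2.78 ± 0.381 CPM lay above all hHAR123 libraries and far below HAR123-KO, with a log2 difference of 0.77 from hHAR123 (SE 0.19, adjusted p = 0.00281). DESeq2 gave an adjusted p of 0.0474, and it was 0.0172 without hHAR123 replicate 2 and 0.0379 without cHAR123 replicate 1. INSM1 was also higher in those libraries, at 9.88 ± 0.269 CPM against 7.11 ± 0.945 CPM in hHAR123 (log2 difference 0.49, adjusted p = 0.00039, and 0.0113 without hHAR123 replicate 3).

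In the libraries labelled mHAR123, DCX was lower than in hHAR123. It had 29.9, 32.0 and 28.6 CPM, all below the hHAR123 libraries, with a log2 difference of -0.31 (SE 0.06, adjusted p = 6.32e-05). NEUROG1 had 41, 40 and 28 counts there, at 1.48 ± 0.237 CPM, which overlapped hHAR123 (95% interval of the log2 difference -0.54 to 0.32). NEUROG2 was at 2.57 ± 0.312 CPM in the cHAR123 libraries and 2.55 ± 0.704 CPM in the mHAR123 libraries, overlapping hHAR123 in both (95% intervals -0.34 to 0.32 and -0.36 to 0.36).

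Compared with each other, the mHAR123 libraries were lower than the cHAR123 libraries for 4 members with an adjusted p under 0.01, which 1.56% of all genes tested had in that direction. They were DCX (log2 difference -0.39, adjusted p = 7.87e-07), ELAVL3 (-0.40, adjusted p = 9.78e-05), INSM1 (-0.50, adjusted p = 0.000273) and NEUROG1 (-0.88, adjusted p = 0.00136). None passed the fold threshold, and 0.261% of all genes tested were called in either direction. With DESeq2, DCX and ELAVL3 kept an adjusted p under 0.01, INSM1 had 0.0104 and NEUROG1 received none. If the labels of these 2 groups were exchanged, the sizes would stand and the signs and names would change.

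Set against HAR123-KO in place of hHAR123, the libraries labelled cHAR123 had 3 members called (7.61% of all genes tested). NEUROG1 was 2.04 lower on the log2 scale (log2 fold change -2.04, adjusted p = 5.49e-23), NEUROG2 was 1.14 higher (adjusted p = 4.61e-06) and ELAVL4 was 1.09 higher (adjusted p = 1.05e-10). In the libraries labelled mHAR123, 2 members were called (7.33% of all genes tested), namely NEUROG1 (log2 fold change -2.92, adjusted p = 5.39e-23) and NEUROG2 (1.15, adjusted p = 2.16e-05). The NEUROG2 call needed mHAR123 replicate 2, without which the value was 0.91 (adjusted p = 0.00173). ELAVL4 stood at 0.94 (adjusted p = 1.84e-07) and passed 1 without that library (1.06) or without HAR123-KO replicate 3 (1.01). Both comparisons share the HAR123-KO libraries.

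The rest of the proneural pathway was read from lists fixed by function. Among 12 other proneural and neuronal bHLH factors 6 could be tested in HAR123-KO against hHAR123 neuroectoderm. Of these NHLH2 fell (log2 fold change -1.55, adjusted p = 7.54e-06). None of the 3 E proteins, the dimer partners of the proneural factors, was called by edgeR, although all 3 had an adjusted p under 0.01 with changes inside the fold threshold. Of 9 inhibitors of proneural activity 3 were called higher and 2 lower, led by HES5, a Notch effector (-3.00, adjusted p = 1.62e-45), ID1 (1.57, adjusted p = 9.81e-25) and ID4 (-1.54, adjusted p = 1.72e-33).

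Of 19 commitment factors tested 3 were called higher and 2 lower in the same comparison, led by SRRM4, a neuronal splicing factor (2.14, adjusted p = 3.07e-32), DLL1, a Notch ligand of nascent neurons (-1.96, adjusted p = 4.93e-41), and ONECUT1 (1.43, adjusted p = 1.93e-11). Of 26 other neuronal cytoskeleton, RNA-binding and synaptic genes 2 were called higher and 2 lower, among them GAP43, a growth-cone protein (2.37, adjusted p = 2.41e-34), STMN4, a relative of STMN2 (-2.12, adjusted p = 5.97e-11), and SNAP25 (1.16, adjusted p = 4.02e-12). The list medians were between -0.13 and 0.17 for these 5 lists, against 0.00 over all genes. Calls in both directions were also found outside the 9 members, where 9.45% of all 21362 genes tested were called in either direction.

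Between hHAR123 hESCs and neuroectoderm, 24.6% of all genes tested were called higher and 45.9% were called in either direction. Of the 6 other bHLH factors tested, 4 were called higher and none lower, led by NEUROD4. NEUROD4 had no counts in hHAR123 hESCs and 40.7 ± 1.48 CPM in neuroectoderm. Of the commitment factors 12 of 20 were called higher and 2 lower, among the largest ST18 and DLL1. The other neuronal genes were divided, with 7 of 26 called higher and 10 lower, from MAP2 (log2 fold change 5.06, adjusted p = 3.01e-45) to CHGA (-6.21, adjusted p = 2.45e-37).

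Markers of other cell types moved with HAR123-KO as well, in the comparison in which 9.45% of all genes tested were called. All 9 neural crest markers were called higher in HAR123-KO neuroectoderm, and their summed level was between 1802 and 1813 CPM against 122 to 130 CPM in hHAR123. Placode and sensory neuron markers, of which 5 of 9 tested were called higher and none lower, summed to between 266 and 276 CPM against 49.2 to 52.7 CPM. Neuroectoderm and progenitor markers, of which 6 of 8 were called lower, summed to between 1200 and 1221 CPM against 3023 to 3063 CPM.

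The neural crest markers summed to between 291 and 303 CPM in the libraries labelled cHAR123 and between 331 and 339 CPM in those labelled mHAR123. Of the 9 markers, 8 and 7 were called higher than in hHAR123, where 0.978% and 1.03% of all genes tested were called in either direction. NEUROG1 was at 2.78 and 1.48 CPM in these libraries and at 1.65 CPM in hHAR123. The part of these cell types in the levels of the 9 genes was not tested. Of the endocrine markers, INS, GCG and PDX1 had no counts in any library of the 8 groups. The members' own summed level was between 102 and 104 CPM in hHAR123 and between 118 and 124 CPM in HAR123-KO neuroectoderm. DCX, the largest part of that sum, had a mean of 38.5 CPM in hHAR123 and 56.8 CPM in HAR123-KO. NEUROG1 and INSM1 also had higher means in HAR123-KO, ELAVL3 stayed level, and NEUROG2, NEUROD1, TUBB3, ELAVL4 and STMN2 had lower means.

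**Figure D4:**
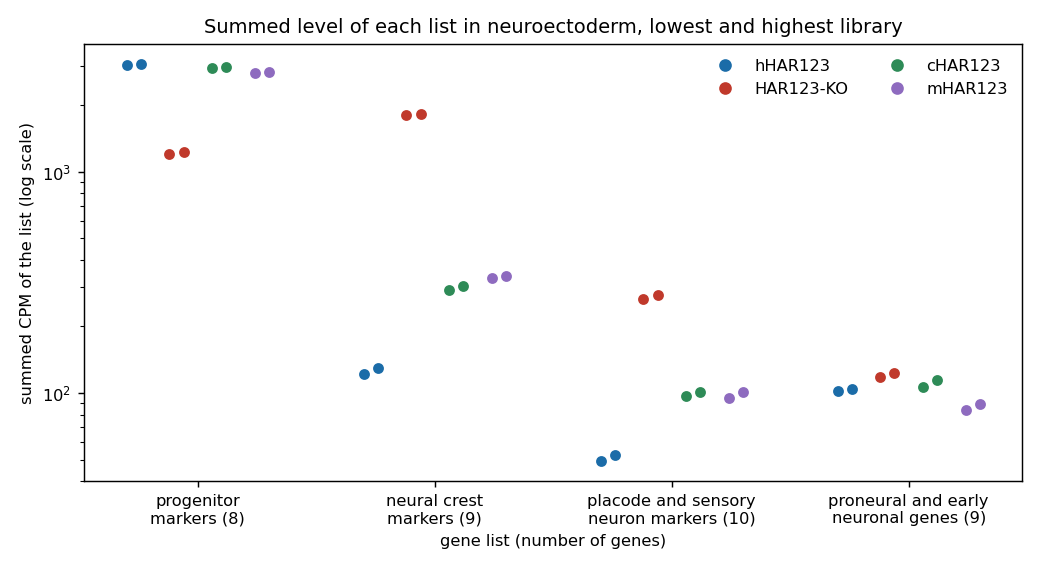
Summed level in CPM (vertical axis, log scale) of 3 marker lists and of the 9 genes in neuroectoderm, by genotype as labelled, with the lowest and the highest of 3 libraries as points. Neural crest markers reach 1802 to 1813 CPM in HAR123-KO, while the summed level of the 9 genes ranges from 83.8 to 124 CPM over all genotypes.

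The genes whose mean log2 CPM over the 8 groups ran most like that of a member were found by Pearson's r among 19601 genes. For NEUROG1 they were DPY19L1 (r = 0.998), FIGN (0.997) and LPIN1 (0.997), and for NEUROG2 they were SMARCA5-AS1, ZBTB26 and RSPO1 (0.9989 to 0.9995). For INSM1 they were LNPEP, LYST and TGFBR3 (0.998 to 0.999), for DCX they were GNPTG, ROBO2 and NAB2 (0.993 to 0.996), and for ELAVL3 they began with SPATA13 and LPAR4 (both 0.999). TUBB3 had the lowest values, with LRP2BP-AS1 (0.979) and CTCF-DT (0.975) first. The first genes for NEUROD1, ELAVL4 and STMN2 were TLCD5 (0.9996), DM1-AS (0.999) and the gene ENSG00000270574 (0.999). The 8 points are 4 genotypes at 2 stages, so the difference between the stages sets most of each value.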

How the data were processed

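Total RNA of H9 cells was depleted of ribosomal RNA, made into 24 directional libraries and sequenced in pairs. The authors aligned reads with STAR 2.5.2b to GRCh38 (Ensembl 106) and counted exon reads per gene with featureCounts, and the deposited table holds these raw counts per gene and library. The strand setting was not stated. Of the file's lines, 3 held no complete gene row and were left out, which left 61551 genes.

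Groups came from the sample labels. The 3 libraries of a group came from 2 clones, and the labels do not say whether they were separate cultures, so p-values measure the spread between these libraries. Replicates of a group differed beyond counting noise (chi-square per degree of freedom 1.4 to 4.97 in 24 pairs). Each pair of groups was fitted with edgeR 4.0.16 (filterByExpr, TMM scaling, quasi-likelihood test, Benjamini-Hochberg over all genes tested), in R 4.3.3, and checked on simulated data. TMM factors ran from 0.895 to 1.13. CPM values scale counts to the library total, and RPKM values divide them by exon length in kilobases. SD, exact intervals and floors cover 3 libraries or counting error only. As alternatives, DESeq2 1.42.0 was run at its defaults, and edgeR with size factors from DESeq2, no filter, 1 fit of all libraries, a replicate block and leaving out each library. Values in the text name all 9 members in each main comparison, and of each list up to 3 called genes with the largest change.

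The members and lists were chosen with earlier results of these data known. Promoter windows came from RefSeq and were found for 6 of the 9 members, NEUROG1, NEUROG2, NEUROD1, DCX, TUBB3 and ELAVL4. Fold changes between stages of genes at 0 to 3 counts depend on the prior count and are not printed. Some genes of the lists are not reported here.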

Additional observations from a re-analysis of the deposited data

Results flagged for a closer look

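The effect of deleting HAR123 on DCX differed between the stages by the interaction test, by 0.88 on the log2 scale (edgeR's quasi-likelihood test, adjusted p = 7.53e-12), with DCX lower in all 3 HAR123-KO hESC libraries and higher in all 3 HAR123-KO neuroectoderm libraries than in hHAR123. The effect on TUBB3 differed by -0.69 (adjusted p = 0.000147), with all 3 libraries higher in hESCs and lower in neuroectoderm. Groups of 3 libraries are too small to test a single library as standing apart.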

How the results depend on the processing

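At 0 to 3 counts in hESCs no genotype effect could be tested for NEUROG1, NEUROG2, NEUROD1 and ELAVL4. NEUROG2 had 23 to 70 counts in HAR123-KO and hHAR123 neuroectoderm, and its call there depended on 1 library. Of 1410 alternative values of 120 member log2 fold changes, 1340 kept their direction and their side of the thresholds, 2 lost a call and 3 gained one. The other 65 changed sign. These lie in 24 of the 53 pairs of member and comparison whose adjusted p was 0.01 or more, and none of the 53 was called under an alternative. For 3 of them the adjusted p fell under 0.01, namely DCX in HAR123-KO hESCs, ELAVL3 in cHAR123 neuroectoderm without hHAR123 replicate 3 (0.0058) and STMN2 in mHAR123 neuroectoderm without hHAR123 replicate 1 (0.008). Levels rescaled by TMM moved by more than 1 SD in 21 of 72 cases. The cause of these changes was not tested. Stage differences of NEUROG1, NEUROG2, NEUROD1 and ELAVL4 were planned and fitted but are left out, since their hESC counts lay at or under 3.

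The replicate numbers did not pair the libraries: in none of 13 pairs of groups were all same-numbered correlations over 0.1 (range -0.02 to 0.04). With the replicate block NEUROG1 in HAR123-KO neuroectoderm was at 2.83 and NEUROG2 at -1.12. The replicate block changed no call of a member, raised the members with an adjusted p under 0.01 in HAR123-KO hESCs from 0 to 1 (DCX), as did DESeq2 size factors (1), no low-count filter (1) and 1 fit of all libraries (1), and turned ELAVL3 in mHAR123 hESCs to -0.000423.

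DESeq2 called fewer genes, with 125 higher and 26 lower in HAR123-KO hESCs (200 and 46 with edgeR), 50 and 23 in cHAR123 hESCs (131 and 47), 96 and 24 in mHAR123 hESCs (217 and 42), 71 and 44 in cHAR123 neuroectoderm (111 and 97), 76 and 28 in mHAR123 neuroectoderm (128 and 91), 7 and 7 between mHAR123 and cHAR123 neuroectoderm (22 and 33), and, for the stage difference, 71 lower for cHAR123 (130) and 93 lower for mHAR123 (157). Without a filter 64 genes were called lower in mHAR123 hESCs. With DESeq2 the members with an adjusted p under 0.01 numbered 1 in cHAR123 neuroectoderm, 5 in cHAR123 against HAR123-KO and 2 in mHAR123 against cHAR123.

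With single libraries left out there were 0 to 2 members called lower in HAR123-KO neuroectoderm and 1 to 2 members called higher in mHAR123 against HAR123-KO. The members with an adjusted p under 0.01 then numbered 0 to 1 in HAR123-KO hESCs, 1 to 2 in cHAR123 neuroectoderm, 1 to 2 in mHAR123 neuroectoderm, and 5 to 8 in cHAR123 against HAR123-KO.

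Signs that changed belonged to values near 0. In cHAR123 hESCs DCX was -0.000711 (DESeq2), -0.00329 (no filter) and -0.015 (1 fit). In mHAR123 hESCs TUBB3 was -0.00400 (DESeq2), -0.00521 (no filter) and -0.014 (1 fit), and ELAVL3 was -0.000797 (DESeq2). INSM1 was 2.2e-05 in mHAR123 neuroectoderm without a filter. TUBB3 between the stages of HAR123-KO was -0.030 (DESeq2), -0.00764 (DESeq2 size factors), -0.012 (no filter) and -0.00582 (1 fit). INSM1 was 0.00410 for the stage difference of cHAR123 (DESeq2).

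With 1 library left out, log2 fold changes ran as follows. In HAR123-KO hESCs ELAVL3 ran from -0.23 to 0.10. In cHAR123 hESCs DCX ran from -0.057 to 0.081, ELAVL3 from -0.14 to 0.18 and STMN2 from -0.71 to 0.13. In mHAR123 hESCs TUBB3 ran from -0.054 to 0.065, ELAVL3 from -0.41 to 0.23, STMN2 from -0.32 to 0.31 and DCX from -0.12 to 0.0034. In cHAR123 neuroectoderm NEUROG2 ran from -0.12 to 0.077 and STMN2 from -0.090 to 0.020. In mHAR123 neuroectoderm NEUROG2 ran from -0.24 to 0.13, NEUROD1 from -0.23 to 0.083, INSM1 from -0.11 to 0.069, ELAVL4 from -0.10 to 0.11 and NEUROG1 from -0.19 to 0.0056. INSM1 in cHAR123 against HAR123-KO ran from -0.076 to 0.042, NEUROG2 in mHAR123 against cHAR123 from -0.23 to 0.14, and TUBB3 between the stages of HAR123-KO from -0.11 to 0.099. Of the stage differences, ELAVL3 ran from -0.048 to 0.28 and STMN2 from -0.28 to 0.74 for HAR123-KO, INSM1 from -0.29 to 0.20 and STMN2 from -0.15 to 0.71 for cHAR123, and STMN2 from -0.50 to 0.13 and ELAVL3 from -0.35 to 0.30 for mHAR123.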
